A study of Mus musculus with 12 samples.

Results

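The comparison described here sets the injured mouse kidneys that overexpressed a variant of the hormone FGF23 against the kidneys labelled NC. It uses 8 of the 12 libraries of the series, taken by their titles: the 4 labelled AKI_A_FGF23_R176QR179Q (numbers 1, 2, 3 and 5) and the 4 labelled NC (numbers 1 to 4). The first group overexpressed FGF23 with the substitutions R176Q and R179Q, and 3 weeks later acute kidney injury was induced with a model of rhabdomyolysis, in which skeletal muscle breaks down. The label NC is not expanded, and neither an injury nor a construct is named for it. The remaining 4 libraries, labelled AKI_A_mcherry and called AKI_mcherry here, carry the injury label and are named for the red fluorescent protein mCherry. They were used to sort genes into those that stayed altered with the variant and those that ended on the other side of the NC level. The labels give neither the vector, the strain, the age and sex of the mice, the injuring agent nor the time from injury to collection. Whether each library is a separate animal is not stated either, and p-values then reflect only how these libraries varied, which may be technical. The FGF23 variant group differs from NC by injury and by the overexpressed hormone, and these cannot be told apart in this comparison, since no uninjured group with the variant was analysed here.

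FGF23 is a hormone made by bone cells that acts on the kidney through FGF receptors together with the co-receptor klotho. It lowers phosphate reabsorption in the proximal tubule and lowers active vitamin D, by less synthesis and more breakdown. In rhabdomyolysis, myoglobin and other muscle contents reach the nephron, and its proximal tubule, which reabsorbs most of the filtrate and depends on mitochondrial metabolism, is the segment known for injury.

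Library totals were 61687187 to 69271791 counts in the FGF23 variant group and 61591826 to 70638283 in NC. Levels as CPM (read counts scaled for sequencing depth, here with TMM factors as well as library totals) are given for each library, always in the order of the replicate numbers. Defining markers of the kidney were present in all 8 libraries: Lrp2 of the proximal tubule was at 503 ± 229 in the FGF23 variant group and 1783 ± 356 in NC, and Umod of the thick ascending limb at 5299 ± 1141 and 5064 ± 1020.0 (SD, n = 4 each). Ddx3y, a Y-linked gene, was at 48.2 ± 1.54 and 50.1 ± 4.57, and Xist, which is expressed from an inactive X chromosome, at 0.216 ± 0.117 and 0.115 ± 0.0551. Uty and Kdm5d, also Y-linked, were lower than in NC (log2 -0.36 and -0.42, edgeR adjusted p = 0.013 and 0.0392). Scaled by library totals alone, 2 of the 5 X-inactivation and Y-linked genes were higher and 0 lower, beside 7829 higher and 2096 lower of all 19005 genes. The 5 skeletal muscle genes analysed summed to 0.634 to 0.887 CPM in the FGF23 variant group and 0.660 to 1.47 CPM in NC.

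Of 19005 genes tested, 4123 were above NC with the variant (21.7%) and 3912 below it (20.6%; edgeR quasi-likelihood test, Benjamini-Hochberg adjusted p under 0.05). Among these calls, 1371 genes were higher and 1511 lower by at least 1 on the log2 scale, and 281 and 143 by at least 3. The median log2 change over all genes tested was 0.01. Scaled by library totals alone the median was 0.34, and 7829 genes were higher and 2096 lower, so that 78.9% of called genes were higher in place of 51.3%. Changes below are relative to the TMM scale, and lists whose direction depends on it are named where they occur. In bulk tissue, fewer cells of a type and less RNA per cell cannot be told apart.

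Most genes altered in the FGF23 variant group were altered in the same direction in AKI_mcherry. Both injured groups are compared with the same 4 NC libraries, so this count describes these libraries and is no independent support. For AKI_mcherry against NC, 27.2% of 18724 genes tested were higher and 26.0% lower. Of the 18409 genes tested in both comparisons, 3303 were higher in both (17.9%) and 3142 lower in both (17.1%), which is 80.1% and 80.3% of the genes called in the FGF23 variant group in that direction. Of the 3303, 899 were lower with the variant than in AKI_mcherry, 126 were higher and 2278 were not called (edgeR quasi-likelihood test, 11.7% of 18824 genes higher and 11.4% lower in that comparison). Of the 3142 that were lower in both, 876 were higher than in AKI_mcherry, 67 lower and 2199 not called. A further 752 genes were called higher and 716 lower in AKI_mcherry, were not called against NC in the FGF23 variant group, and differed between the injured groups in the direction of NC (4.17% and 3.97% of the genes tested in all 3 comparisons). Missing the threshold against NC does not show that these genes had the NC level.

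A smaller number of genes stood beyond NC. Genes called on opposite sides of NC in the 2 injured groups numbered 36 above NC (0.196% of genes tested in both comparisons) and 16 below (0.0869%). Another 250 genes were higher and 202 lower than in both other groups with no call in AKI_mcherry (1.32% and 1.06% of genes tested). These counts changed when 1 library was left out, which also leaves fewer libraries in the fit. Whether the library itself or the smaller number set the change was not tested. Between the injured groups, 1252 genes were higher and 1158 lower without FGF23 variant replicate 1, and 1494 and 1359 without replicate 2. Without replicate 3 there were 2036 higher and 1987 lower, and without replicate 5 there were 1439 and 1279. The genes set apart numbered 159 higher and 102 lower without FGF23 variant replicate 1, 164 and 108 without replicate 2, and 162 and 104 without replicate 5. The genes below NC numbered 26 without AKI_mcherry replicate 3, 9 without NC replicate 2 and 8 without NC replicate 4. The plot of list medians shows both injured groups against NC for 32 gene lists.

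**Figure D1:**
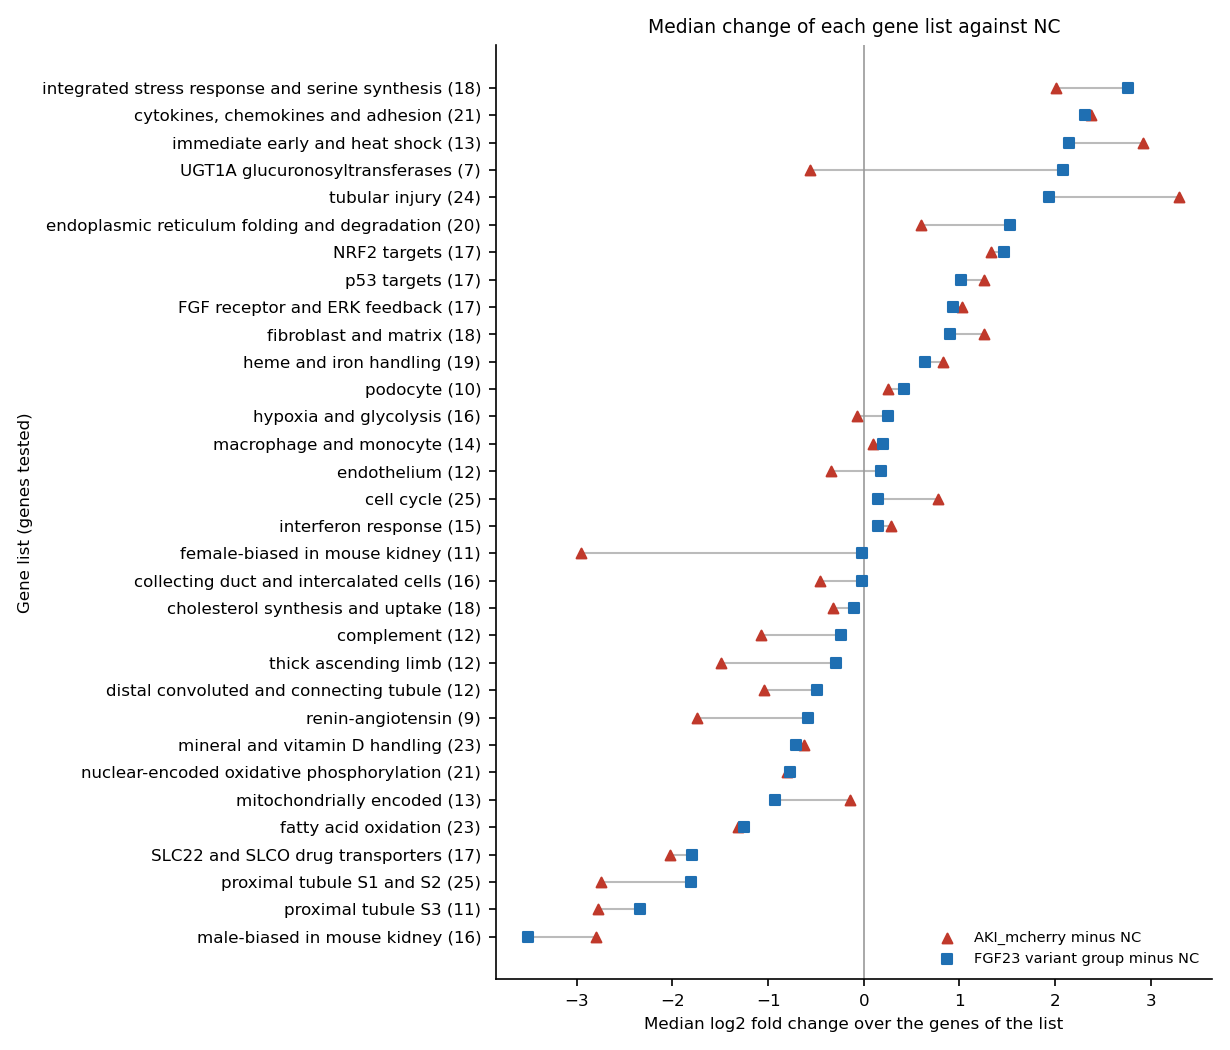
Median log2 fold change against NC (x axis) over the tested genes of each list (y axis, number of genes in brackets) in the FGF23 variant group (squares) and in AKI_mcherry (triangles), joined by a line. Both use the same 4 NC libraries. Lists of integrated stress response genes (2.76) and male-biased genes (-3.51) have the outermost medians in the FGF23 variant group, and the thick ascending limb list sits at -0.29 (0.04 when scaled by library totals alone) against -1.49 in AKI_mcherry.

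The hormone and the vitamin D enzymes stood apart from both other groups. Fgf23 (ENSMUSG00000000182), the overexpressed gene, was at 6.12, 5.79, 7.28 and 4.49 CPM in the FGF23 variant group and had 0 counts in all NC and all AKI_mcherry libraries. Set against 3 counts in each NC library as a nominal floor (0.0513 CPM), it was at least 115-fold higher, a bound for counting error only, since single events may have been counted more than once. Cyp24a1, the 24-hydroxylase that breaks down active vitamin D, was at 730.3, 426, 387 and 774 CPM against 38.1, 97.8, 64.4 and 58.3 in NC and 36.5, 77.8, 32.0 and 92.4 in AKI_mcherry. All 4 variant libraries were above all others, and the rise against NC was 9.08-fold (log2 3.18 ± 0.32, SE; edgeR adjusted p = 3.02e-05). Cyp27b1, the 1-alpha-hydroxylase that makes active vitamin D, was at 0.494, 1.05, 1.29 and 0.351 CPM against 4.43, 7.20, 6.39 and 3.91 in NC and 14.7, 1.42, 13.3 and 2.75 in AKI_mcherry. It was 6.78-fold lower than in NC (log2 -2.76 ± 0.41, SE; edgeR adjusted p = 3.38e-04), with no overlap between those 2 groups, and against AKI_mcherry the log2 difference was -3.33 (adjusted p = 0.0125). Vdr, the vitamin D receptor gene, was at 175 ± 47.3 against 247 ± 34.5 CPM and was not called (adjusted p = 0.063).

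Transcripts of the phosphate cotransporter genes Slc34a1 and Slc34a3 and of the FGF23 co-receptor remained low. Slc34a1, the main sodium-phosphate cotransporter of the proximal tubule, was at 815, 322, 299.5 and 509.6 CPM against 3307, 4531, 5534 and 5275 in NC, 9.46-fold lower (adjusted p = 2.86e-05). Slc34a3, the second such cotransporter, was at 12.9, 4.68, 4.55 and 4.48 against 32.2, 55.6, 46.9 and 46.5 CPM, 6.71-fold lower (adjusted p = 1.46e-04). In both genes, replicate 1 was the highest of the variant libraries and still below every NC library. Slc20a1, a sodium-phosphate cotransporter gene expressed in many cell types, went the other way, with 95.3, 86.9, 103 and 88.7 against 28.5, 30.1, 35.5 and 36.7 CPM (2.90-fold higher, adjusted p = 2.42e-06). Kl, which encodes klotho, was at 319, 272, 149 and 246 against 661, 742, 938 and 1057 CPM and was 3.40-fold lower than in NC (log2 -1.77 ± 0.23, SE; edgeR adjusted p = 1.41e-04), above all AKI_mcherry libraries (124, 108, 89.9 and 119 CPM). Fgfr1, a receptor gene for FGF23, was at 61.4 ± 4.68 against 59.5 ± 3.87 CPM, with overlapping groups (adjusted p = 0.573), and was called higher when scaled by library totals alone (log2 0.40).

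The wider list of mineral and vitamin D genes had 3 of 23 higher and 16 lower, with a median log2 change of -0.70 (5 higher, 12 lower and -0.37 when scaled by library totals alone). The genes that were higher were Cyp24a1, Slc20a1 and Trpv5, the calcium entry channel of the distal nephron (36.5 ± 9.32 against 18.9 ± 5.85 CPM, overlapping groups, adjusted p = 0.00855). Among those that were lower was S100g, encoding the calcium-binding protein calbindin-D9k, at 68.2, 69.2, 65.0 and 55.9 CPM against 333, 319.6, 322 and 361 in NC and 191, 230.3, 265 and 171 in AKI_mcherry. S100g was 5.11-fold lower than in NC (adjusted p = 1.19e-07) and lower than in AKI_mcherry (log2 -1.73, adjusted p = 1.51e-04), so it lay furthest from NC in the variant group. Pth1r, the parathyroid hormone receptor gene, was 2.64-fold lower and Pdzk1, a scaffold for transporters of the brush border, 3.20-fold lower.

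**Figure D2:**
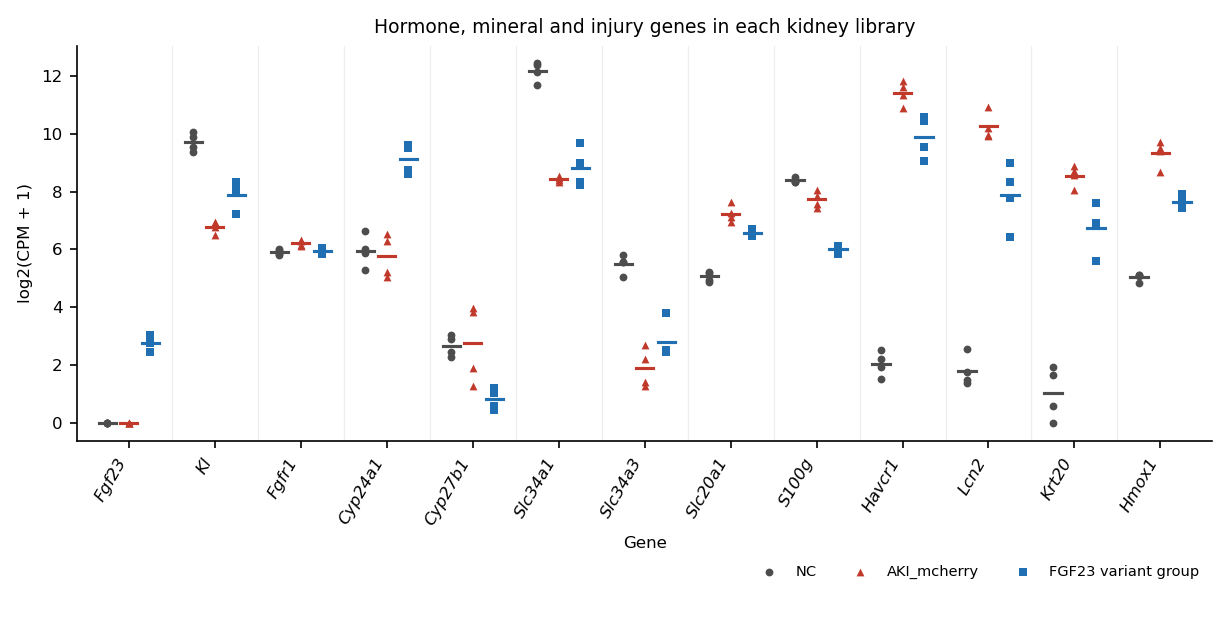
Level of 13 hormone, mineral and injury genes (x axis) as log2(CPM + 1) (y axis) in each library, with a bar at the group mean. NC, AKI_mcherry and the FGF23 variant group hold 4 libraries each. In the FGF23 variant group Cyp24a1 lies above and Cyp27b1 below every NC library, and Havcr1, Lcn2, Krt20 and Hmox1 remain above NC in both injured groups.

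Injury genes of the tubule stayed far above NC. Havcr1, the KIM-1 gene switched on in damaged proximal tubule cells, was at 531, 741, 1376 and 1546 CPM against 4.76, 1.84, 2.84 and 3.61 in NC, 326-fold higher (log2 8.35 ± 0.47, SE; edgeR adjusted p = 8.34e-07). Lcn2, encoding the secreted injury protein NGAL, was at 85.9, 319, 513 and 216 against 4.82, 2.37, 1.58 and 1.79 CPM (109-fold, adjusted p = 1.43e-05). Krt20, a keratin gene of injured tubules, was at 47.7, 117, 195 and 120.0 against 2.13, 2.83, 0 and 0.499 CPM (90.3-fold, adjusted p = 1.32e-04). No variant library reached down to the NC range for these genes. Replicate 1 had the lowest Havcr1, Lcn2 and Krt20 of the variant libraries and the highest Slc34a1, Slc34a3 and Kl.

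Of 24 tubular injury genes, 19 were higher and 0 lower, with a median log2 change of 1.94 against 3.30 in AKI_mcherry, and 20 were lower than in AKI_mcherry. Spp1, the osteopontin gene, was at 13861 ± 6564 against 684 ± 69.5 CPM, and Sox9, a transcription factor gene of regenerating tubule cells, was 24.0-fold higher. The 5 members that were not called were Anxa1, Itgb6 and the keratin genes Krt7, Krt18 and Krt19, of which Krt19 was at 10.8 ± 7.61 against 9.92 ± 7.64 CPM (adjusted p = 0.882).

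The proximal tubule lists had the lowest medians of the 5 nephron segment lists. Of 25 genes of segments S1 and S2, 23 were lower than in NC and 0 higher, with a median log2 change of -1.81 (-2.75 in AKI_mcherry). Against AKI_mcherry, 11 of the 25 were higher with the variant and 2 lower (median 0.83). All 11 genes of segment S3 were lower than in NC, with a median of -2.34 (-2.77 in AKI_mcherry). Kap, the androgen-regulated gene of these cells, was at 1518, 1028, 1998 and 2259 CPM against 23725, 19106, 21679 and 19086 in NC (12.1-fold lower, adjusted p = 1.79e-06), and also below all AKI_mcherry libraries (9255, 15786, 5525 and 8876 CPM). Miox, of inositol breakdown, was 9.61-fold lower, and Fbp1, of gluconeogenesis, 8.43-fold lower. In S3, Slc7a13, an amino acid transporter gene, was 10.7-fold lower and Slc22a30, an organic anion transporter gene with near copies that make its counts uncertain, 30.9-fold lower. The 2 members of the S1 and S2 list that were not called were the amino acid transporter genes Slc6a18 (592 ± 139.7 against 588 ± 62.2 CPM) and Slc7a8 (76.3 ± 16.9 against 116 ± 46.3).

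Transporters that carry drugs and organic ions followed the same direction. Of 17 tested genes of the SLC22, SLCO, ABCC and SLC47 families, 14 were lower and 2 higher, with a median log2 change of -1.79. Slc22a12, the urate transporter gene, was 6.66-fold lower, and Slc22a6, the organic anion transporter OAT1, 5.62-fold lower. Both that were higher encode efflux pumps: Abcc4 at 171 ± 42.8 against 32.0 ± 6.15 CPM and Abcc3 at 7.68, 10.3, 13.8 and 12.2 against 4.49, 6.11, 1.73 and 3.09 CPM (adjusted p = 6.5e-06 and 0.00417).

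The thick ascending limb, which reabsorbs salt and makes uromodulin, was nearer to NC. Of its 12 genes 6 were lower and 0 higher (median log2 -0.29; 4 lower, 3 higher and a median of 0.04 when scaled by library totals alone), while 11 were lower in AKI_mcherry (median -1.49) and 10 were above the AKI_mcherry level. Umod was at 4349, 6319, 6254 and 4274 CPM against 6541, 4656, 4843 and 4215 in NC, with overlapping groups (adjusted p = 0.738). Slc12a1, the salt cotransporter blocked by furosemide, was at 909.5, 825, 573 and 493 against 1725, 1154, 1146 and 1201 CPM, still 1.84-fold lower (adjusted p = 0.00589). Egf, which encodes epidermal growth factor, was at 572, 208, 129 and 177 against 1845, 1786, 1737 and 1892 CPM, 6.60-fold lower (adjusted p = 3.74e-04), with replicate 1 well above the other variant libraries.

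Over all genes tested, 21.7% were higher and 20.6% lower than in NC. Library totals alone gave 7829 higher and 2096 lower of all 19005 genes. Among 12 genes of the distal convoluted and connecting tubule, 6 were lower and 1 higher (median -0.49), and 3 were lower and 1 higher when scaled by library totals alone (median -0.16). Slc12a3, the thiazide-sensitive cotransporter gene, was at 912 ± 41.1 against 883 ± 289.8 CPM (adjusted p = 0.837), and Pvalb, the parvalbumin gene, at 5.16 ± 4.49 against 15.3 ± 2.48 CPM was called lower (adjusted p = 0.0216), but not without FGF23 variant replicate 2 (log2 -1.42) or 5 (-1.37). In the collecting duct and intercalated cells 3 of 16 were lower and 1 higher (median -0.02, 0.31 when scaled by library totals alone, with 6 higher and 2 lower). The water channel gene Aqp3 was 2.58-fold lower (adjusted p = 1.12e-06), and Aqp6, an intercalated cell channel gene, was at 78.8 ± 20.2 against 53.2 ± 2.44 CPM and above every NC library (log2 0.58 ± 0.15, SE; adjusted p = 0.0112). Of 10 podocyte genes 4 were higher and 2 lower (median 0.43), and 8 were higher and 2 lower when scaled by library totals alone (median 0.76). Nphs1, encoding nephrin, was at 43.9 ± 2.66 against 32.4 ± 5.06 CPM (adjusted p = 0.00684).

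**Figure D3:**
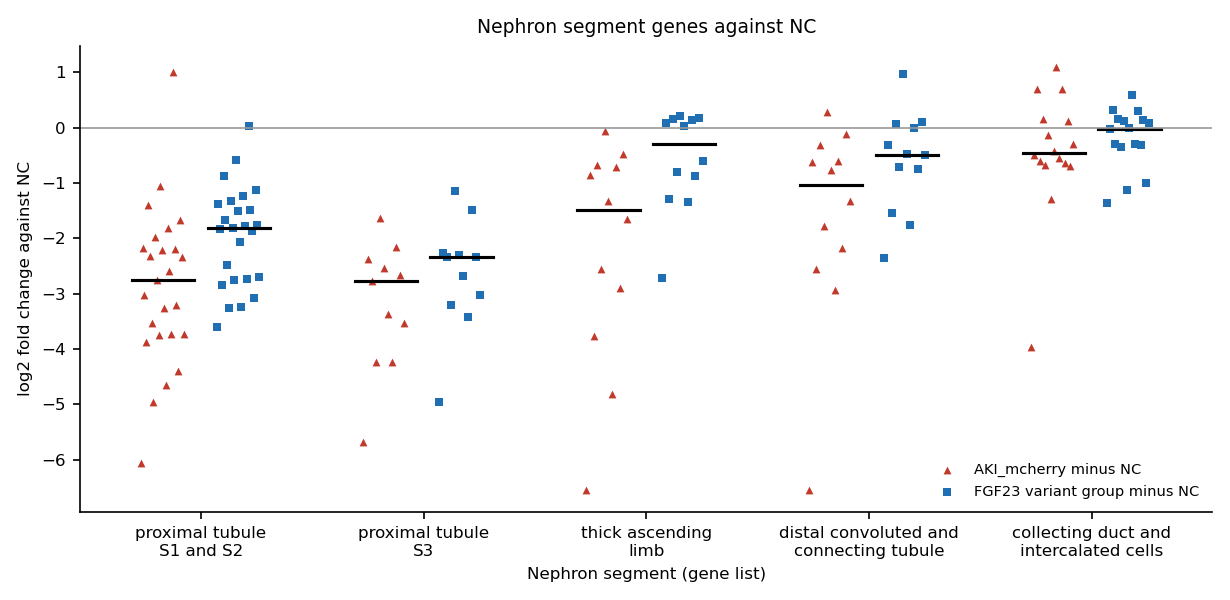
Log2 fold change against NC (y axis) of each tested gene of 5 nephron segment lists (x axis) in AKI_mcherry (triangles) and the FGF23 variant group (squares), with a black bar at the median. Both sets of points share the NC libraries. The medians of the proximal lists lie below 0 in both groups (-1.81 and -2.34 with the variant), and those of the thick ascending limb and the collecting duct lie at -0.29 and -0.02 with the variant on the TMM scale, and at 0.04 and 0.31 when scaled by library totals alone.

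Transcripts of mitochondrial metabolism genes remained low. Of 23 fatty acid oxidation genes 20 were lower and 0 higher (median log2 -1.26, against -1.31 in AKI_mcherry). Acadm, the medium-chain acyl-CoA dehydrogenase gene, was at 264, 224, 234 and 245 CPM against 1422, 1156, 1175 and 1249 in NC (5.10-fold lower, adjusted p = 1.84e-07), and Ehhadh, of the peroxisomal pathway, was 7.15-fold lower. All 21 nuclear-encoded oxidative phosphorylation genes were lower (median -0.77), and 16 were lower when scaled by library totals alone (median -0.44).

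Genes of the mitochondrial genome were lower than in both other groups in most cases. All 13 were lower than in NC (median log2 -0.93, and -0.60 with all 13 lower when scaled by library totals alone), 5 were lower in AKI_mcherry than in NC, and 11 were below the AKI_mcherry level. mt-Nd2, a complex I subunit, was at 6175, 6262, 5119 and 5828 CPM against 15379, 12089, 12900.2 and 13683 in NC (2.28-fold lower, adjusted p = 1.43e-05). The share of counts from genes with the prefix mt- was 10.9% to 13.1% with the variant, 15.3% to 16.9% in NC and 13.8% to 17.1% in AKI_mcherry. Nuclear copies make the counts of single members uncertain.

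Folding genes of the endoplasmic reticulum rose, most of them to levels above both other groups. This compartment folds secreted and membrane proteins, and when unfolded proteins build up, the factors ATF6 and XBP1 switch on its chaperones through a promoter element that begins with CCAAT. Hspa5, the main chaperone (BiP), was at 2875, 2927, 2699 and 2373 CPM against 353, 314, 318 and 334 in NC and 972, 782, 1507 and 749 in AKI_mcherry. Every variant library was above every other library, and Hspa5 was 8.35-fold higher than in NC (log2 3.06 ± 0.10, SE; edgeR adjusted p = 6.38e-08). Derl3, of the pathway that removes misfolded proteins, was at 84.7, 58.2, 44.4 and 60.7 against 0.809, 0.439, 0.866 and 0.547 CPM (94.2-fold, adjusted p = 1.84e-07), and Sdf2l1, a cofactor of Hspa5, at 99.4, 97.8, 79.9 and 77.0 against 10.1, 4.60, 5.44 and 5.46 CPM (log2 3.81 ± 0.24, SE; adjusted p = 1.43e-06).

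Of 20 genes of this list 19 were higher than in NC and 0 lower (median log2 1.53), with the same counts when scaled by library totals alone. In AKI_mcherry 12 were higher and 3 lower (median 0.60), and 18 stood above the AKI_mcherry level. Calr, encoding the chaperone calreticulin, was at 1435, 1113, 1103 and 1316 CPM against 556, 471, 525 and 489 in NC and 531, 602, 641 and 492 in AKI_mcherry, where it was not called. Dnajc3, a cochaperone of Hspa5, was at 348, 289, 246 and 331 CPM against 188, 177, 166 and 177 in NC and 132, 117, 139 and 113 in AKI_mcherry, so the injured groups lay on opposite sides of NC. Herpud1, of the degradation pathway, was the member that was not called (284 ± 30.1 against 313 ± 11.9 CPM, adjusted p = 0.31).

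**Figure D4:**
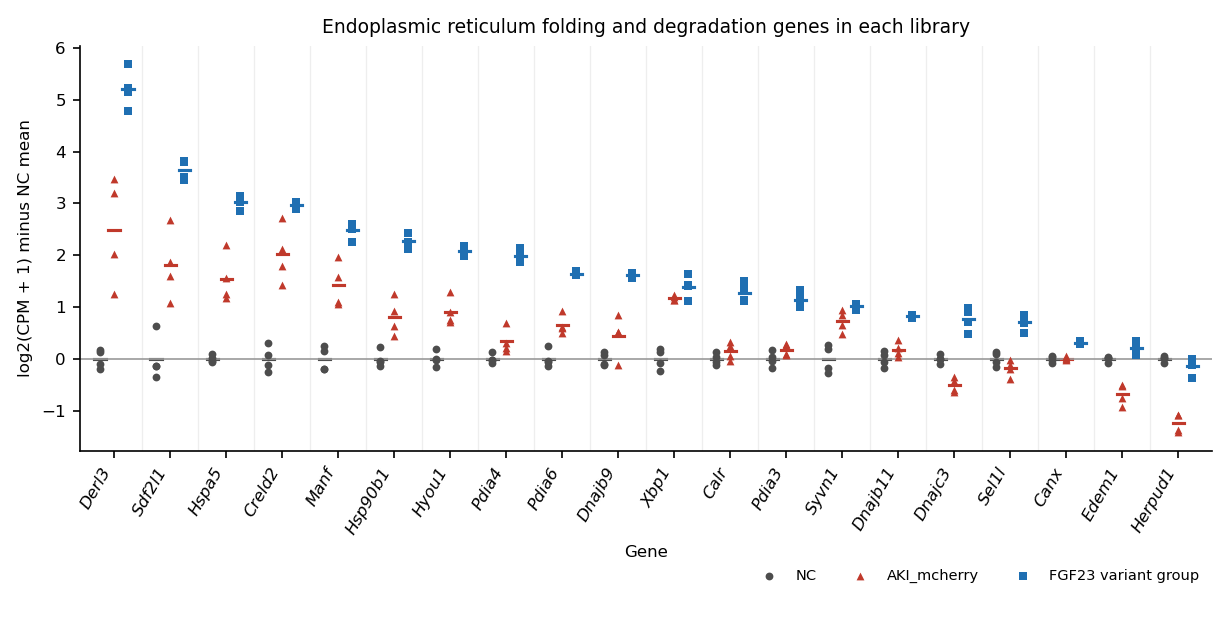
Level of 20 endoplasmic reticulum folding and degradation genes (x axis) as log2(CPM + 1) minus the mean of NC (y axis) in each library, with a bar at the group mean, ordered by log2 fold change of the FGF23 variant group against NC. Derl3 and Sdf2l1 lie furthest above NC, and Herpud1, at the right, is the member that was not called.

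To show where the element lies, promoters of these genes (250 bases before to 50 after the start, RefSeq, build GRCm38.p6, matched by symbol) were searched on both strands for CCAAT followed by any 9 bases and CCACG. A promoter was found for 18 of the 20 genes, and 9 held the element, against 39 of all 32851 promoters of this length (0.119%). The element is known for such genes, so this describes the list and gives no test. The sites are shown as read in the direction of the element, with their GRCm38.p6 position and strand and with the fixed bases of the element in capitals. Hsp90b1 held 2.
Hspa5 (chr2:34772025-34772043, + strand): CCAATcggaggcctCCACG
Calr (chr8:84847075-84847093, + strand): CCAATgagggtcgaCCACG
Derl3 (chr10:75893242-75893260, - strand): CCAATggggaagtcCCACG
Hsp90b1 (chr10:86705638-86705656, - strand): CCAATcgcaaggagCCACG
Hsp90b1 (chr10:86705533-86705551, + strand): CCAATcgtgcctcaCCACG
Canx (chr11:50325800-50325818, - strand): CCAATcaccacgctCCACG
Pdia6 (chr12:17266491-17266509, + strand): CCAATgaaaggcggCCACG
Dnajc3 (chr14:118937827-118937845, + strand): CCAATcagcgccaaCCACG
Creld2 (chr15:88819520-88819538, - strand): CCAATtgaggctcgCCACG
Syvn1 (chr19:6046532-6046550, + strand): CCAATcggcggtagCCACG
The sites lay between 25 and 193 bases before the start. Of the 9 genes, 6 remained higher than NC in both injured groups, Calr and Canx were higher than in both other groups, and Dnajc3 lay above NC with AKI_mcherry below. The 250 bases before the start of Hspa5, at chr2:34771840-34772089 on the + strand, and of Dnajc3, at chr14:118937682-118937931 on the + strand, are given because Hspa5 is the main chaperone of the compartment and Dnajc3 lay on opposite sides of NC in the injured groups.
Hspa5: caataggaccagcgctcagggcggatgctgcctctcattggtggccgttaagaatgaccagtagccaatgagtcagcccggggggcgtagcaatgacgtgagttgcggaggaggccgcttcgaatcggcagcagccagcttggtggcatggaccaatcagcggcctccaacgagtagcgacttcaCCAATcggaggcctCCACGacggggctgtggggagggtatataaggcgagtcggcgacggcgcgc
Dnajc3: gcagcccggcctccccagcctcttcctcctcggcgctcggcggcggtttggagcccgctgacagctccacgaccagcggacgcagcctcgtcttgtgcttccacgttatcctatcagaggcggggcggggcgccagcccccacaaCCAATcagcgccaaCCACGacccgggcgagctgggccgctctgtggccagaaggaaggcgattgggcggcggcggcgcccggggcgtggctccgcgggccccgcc
A match is a description of these letters, and no match says nothing about the factors.

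Genes of the integrated stress response, which slows protein synthesis and raises amino acid supply through ATF4, were also high. Of 18 genes 14 were higher and 2 lower (median log2 2.76, against 2.01 in AKI_mcherry), and 7 were higher than in AKI_mcherry. Aldh1l2, of mitochondrial folate metabolism, was at 122, 54.2, 28.1 and 86.9 CPM against 1.03, 3.05, 1.58 and 2.61 in NC and 7.15, 4.06, 4.42 and 6.99 in AKI_mcherry (35.5-fold above NC, adjusted p = 2.22e-05). Trib3, a pseudokinase gene, was 29.9-fold higher, Chac1, of glutathione breakdown, 13.0-fold, and Asns, the asparagine synthetase gene, 11.6-fold. The members that were lower were Shmt2, of serine and glycine conversion (102 ± 20.8 against 200.4 ± 26.3 CPM), and Vldlr, a lipoprotein receptor gene (61.9 ± 13.3 against 103 ± 7.91 CPM).

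Antioxidant and iron genes stayed high in most cases. Of 17 NRF2 targets 13 were higher and 2 lower (median log2 1.47). Slc7a11, the cystine transporter gene, was at 73.2, 53.3, 53.3 and 60.8 CPM against 0.184, 0.246, 0.0327 and 0.161 in NC (log2 8.61 ± 0.29, SE; adjusted p = 6.38e-08), and above all AKI_mcherry libraries (27.4, 23.8, 32.8 and 24.3 CPM). Srxn1, which repairs peroxiredoxins, was at 817, 810.1, 826 and 770.4 against 57.9, 55.7, 55.4 and 68.5 CPM (13.7-fold). Gsta1, a glutathione transferase gene with near copies that make its counts uncertain, was 156-fold higher, and Cbr3, a carbonyl reductase gene, 24.2-fold. Me1 and Osgin1 were lower (2.89-fold and 1.66-fold).

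Heme and iron genes had 12 of 19 higher and 3 lower (median log2 0.64). Hmox1, the heme-degrading enzyme, was at 202 ± 33.0 CPM against 31.8 ± 2.91 in NC (6.44-fold, adjusted p = 3.39e-07), and below all AKI_mcherry libraries (735, 675, 409.6 and 851 CPM). Blvrb, the biliverdin reductase B gene, was 9.01-fold higher and Cp, the ferroxidase ceruloplasmin, 6.84-fold. Cp was also higher than in AKI_mcherry (log2 1.22, adjusted p = 0.00328). Slc46a1, a folate and heme transporter gene, was 2.52-fold lower.

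Transcription factors and feedback genes that respond within minutes to growth and stress signals remained raised. Of 13 immediate early and heat shock genes 12 were higher and 0 lower (median log2 2.15). Fosl1, a partner of JUN proteins, was at 32.9, 36.2, 35.1 and 27.4 CPM, with 0 counts in all NC libraries, and was at least 642-fold above the nominal floor of 3 counts per library. Atf3 was 47.6-fold higher (adjusted p = 2.97e-07), and Egr1 at 16.9, 28.5, 49.7 and 30.1 against 2.10, 5.42, 14.9 and 12.7 CPM was 3.59-fold higher (adjusted p = 0.0159). Of 17 FGF receptor and ERK feedback genes 13 were higher and 1 lower (median 0.94, against 1.03 in AKI_mcherry). Dusp5, an ERK phosphatase gene, was 22.8-fold higher and Etv4, a transcription factor gene downstream of FGF receptors, 9.98-fold. Of 17 p53 targets 11 were higher and 1 lower (median 1.02), with Cdkn1a, the cell cycle inhibitor p21, at 108, 133, 159 and 112 against 5.09, 3.58, 2.89 and 3.49 CPM (34.5-fold).

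Of 25 cell cycle genes 7 were higher and 2 lower (median log2 0.15), beside 21.7% higher and 20.6% lower among all genes tested, and 15 were higher in AKI_mcherry, where 27.2% of all genes were. Those that were higher act in DNA replication and its start, such as Mcm3 (2.22-fold) and Rrm2 (1.96-fold). Ccnd1, the cyclin D1 gene, was 2.07-fold lower and Tk1, the thymidine kinase gene, 1.71-fold. Mitotic genes such as Mki67 (5.09 ± 2.44 against 5.83 ± 1.46 CPM, adjusted p = 0.687) were not called against NC.

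Cytokines and matrix genes stayed above NC while leukocyte markers were called in both directions on the TMM scale. Of 21 tested cytokine, chemokine and adhesion genes 18 were higher and 1 lower (median log2 2.32, against 2.38 in AKI_mcherry). Cxcl1, which attracts neutrophils, was at 11.1, 17.7, 43.6 and 37.7 CPM against 0.681, 0.948, 1.32 and 0.741 in NC (30.1-fold, adjusted p = 1.93e-05). Lif, of the interleukin 6 family, was 19.0-fold higher. Ccl20, a chemokine gene, was at 1.76, 5.69, 13.8 and 3.47 CPM, with 4 counts in 1 NC library and 0 in the others, and was higher than in AKI_mcherry (log2 2.31, adjusted p = 0.0247). Of 18 fibroblast and matrix genes 13 were higher and 0 lower (median 0.90), and Acta2, Dcn, Pdgfra, Postn and Tnc were not called. Timp1, an inhibitor of matrix proteases, was at 15.1, 28.9, 41.8 and 22.3 against 0.644, 0.105, 0.474 and 0.660 CPM (57.7-fold), and Col3a1, a fibrillar collagen gene, was 2.97-fold higher.

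Counts in these cell lists stand beside 21.7% higher and 20.6% lower among all genes tested. By library totals alone, 7829 of all 19005 genes were higher and 2096 lower. Of 14 macrophage and monocyte genes 5 were higher and 3 lower (median log2 0.21), and 8 were higher and 1 lower when scaled by library totals alone (median 0.54). The lysosomal gene Cd68 (5.33-fold) and the endotoxin co-receptor gene Cd14 (5.52-fold) were higher, while Csf1r, the receptor gene that defines these cells, was 2.16-fold lower. Of 5 tested neutrophil genes 2 were higher (4 when scaled by library totals alone), at low levels (S100a9 at 0.806 ± 0.443 against 0.171 ± 0.134 CPM), and Ly6g, Cxcr2 and Mmp8 did not pass the expression filter. Of 9 tested lymphocyte genes 4 were lower, among them Trbc2, a T cell receptor gene (0.201 ± 0.0873 against 1.06 ± 0.381 CPM), and Cd79b, a B cell gene (0.397 ± 0.161 against 1.13 ± 0.482 CPM), which was not called without NC replicate 2 (log2 -1.30). Of 12 endothelial genes 4 were higher and 0 lower (median 0.18), and 10 were higher when scaled by library totals alone. The fat list summed to 33.8 to 142 CPM in the FGF23 variant group and 25.6 to 221 CPM in NC, and the urothelial list to 11.9 to 50.5 and 5.36 to 71.7 CPM, with overlap in both. The part of these cells and of leukocytes in the other results was not tested.

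The genes on the other side of NC were led by 2 that are higher in female than in male mouse kidney. Slc7a12, an amino acid transporter gene, was at 54.2, 23.8, 21.3 and 22.8 CPM in the FGF23 variant group, 1.78, 2.46, 1.72 and 3.65 in NC and 0.123, 0, 0.0950 and 0.178 in AKI_mcherry. It was 12.8-fold above NC (log2 3.68 ± 0.37, SE; edgeR adjusted p = 2.7e-05), and the AKI_mcherry value rests on low counts. Prlr, the prolactin receptor gene, was at 76.0, 41.3, 39.6 and 49.7 CPM, 4.38, 15.8, 6.47 and 11.5 in NC and 2.05, 1.72, 3.07 and 1.40 in AKI_mcherry (5.49-fold above NC, adjusted p = 4.01e-04). The 3 groups did not overlap in either gene, with NC in the middle. The gap between the FGF23 variant group and NC and the middle place of NC follow from how these genes were chosen. The list of genes noted as female-biased, in which the placing of some members is uncertain, had 4 of 11 higher and 3 lower than NC. Among all genes tested, 21.7% were higher and 20.6% lower. The list median was -0.02 on the log2 scale, and 0.31 when scaled by library totals alone. In AKI_mcherry 8 of the 11 were lower than NC and 1 higher (median -2.95). Against AKI_mcherry, 7 were higher with the variant and 1 lower (median 3.875). Cyp2d9, whose placing on this list is uncertain, was lower than in NC (log2 -1.82). Akr1c18, of steroid metabolism, was 24.6-fold lower.

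Among the other genes above NC, Serpina1a was at 140.5, 135, 201 and 163 CPM, 88.0, 56.9, 44.8 and 35.0 in NC and 21.4, 40.3, 32.5 and 30.5 in AKI_mcherry (2.88-fold above NC, adjusted p = 7.35e-04), and Serpina1b at 92.4 ± 17.8 against 40.7 ± 14.9 CPM. Both are copies of the alpha-1 antitrypsin gene, and the split of reads between copies is uncertain. C7, a complement component gene, was 2.57-fold higher (adjusted p = 0.00137), Rdh16f2, of the retinol dehydrogenase family, 2.20-fold (6.57e-04), Ces2e, a carboxylesterase gene, 2.06-fold (3.22e-05), and Slc23a3, of the ascorbate transporter family, 2.06-fold (1.15e-04). Named after their values were seen, Slc13a1, the sulfate transporter gene, was at 601 ± 133 against 345 ± 26.2 CPM, and the secretory pathway genes Dnajc3, Edem1, P4hb, Lman1, Golim4 and Scfd1 were among the 36. The median over the 36 was 0.70 on the log2 scale.

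Of the 16 genes below NC, Ctxn3 and Gm31651 had the largest changes. Ctxn3, which encodes the small membrane protein cortexin 3, was at 0.330, 0.515, 0.183 and 0.505 CPM, 3.13, 6.63, 9.15 and 4.12 in NC and 30.9, 8.60, 8.89 and 23.7 in AKI_mcherry (14.8-fold below NC, adjusted p = 5.19e-05). Gm31651, named after its values were seen, was at 0.710, 0.579, 1.15 and 1.54 CPM, 2.06, 1.82, 2.99 and 2.53 in NC and 5.49, 5.50, 1.82 and 4.46 in AKI_mcherry (log2 -1.22 against NC, adjusted p = 0.0134). Slc25a48, a mitochondrial carrier gene, was at 21.8, 21.4, 21.2 and 23.4 against 37.4, 40.7, 34.3 and 44.4 CPM (1.76-fold lower, adjusted p = 5.76e-05). Cdh2, the N-cadherin gene (1.63-fold), Hgfac, an activator of hepatocyte growth factor (1.60-fold), Glrx, the glutaredoxin gene (1.43-fold), AC114539.1 (1.41-fold), H2afj, a histone gene (1.40-fold), and Mthfsl, of folate metabolism (1.35-fold), were lower on the TMM scale. These 6 were not called against NC when scaled by library totals alone, where log2 changes were -0.37 for Cdh2, -0.34 for Hgfac, -0.18 for Glrx, -0.16 for AC114539.1, -0.15 for H2afj and -0.11 for Mthfsl. AC114539.1 was also not called without FGF23 variant replicate 1 (log2 -0.43), 2 (-0.50) or 5 (-0.42) or NC replicate 2 (-0.45) or 3 (-0.44), and H2afj not without FGF23 variant replicate 5 (-0.44).

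**Figure D5:**
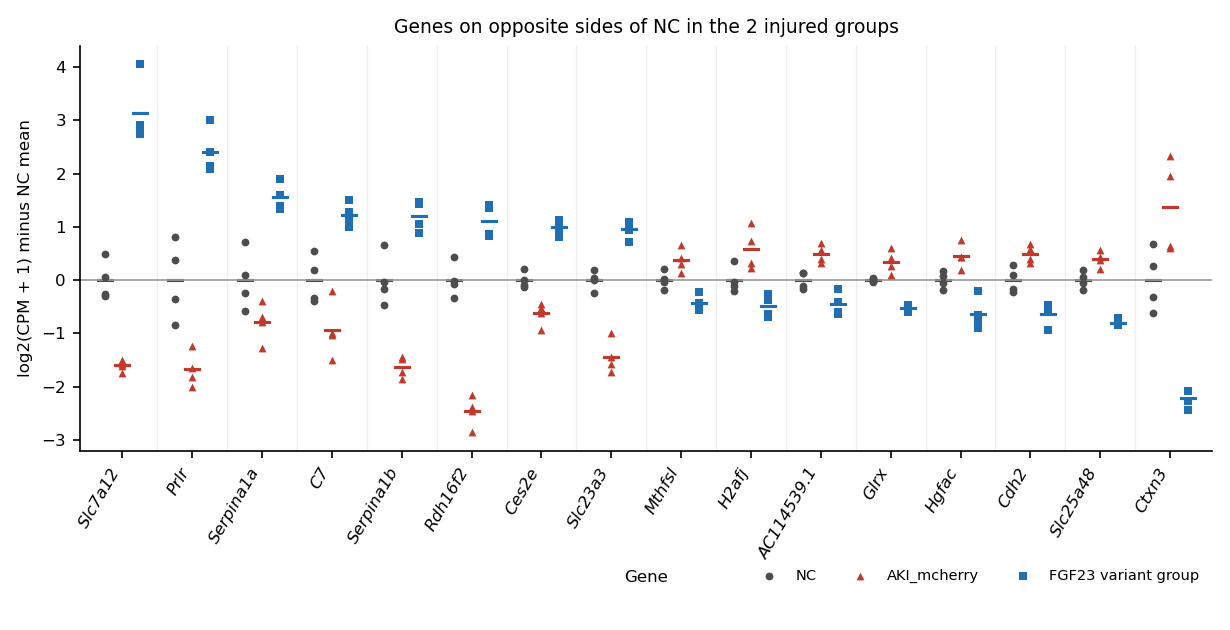
Level of 16 genes called on opposite sides of NC in the injured groups (x axis) as log2(CPM + 1) minus the mean of NC (y axis) in each library, with a bar at the group mean. The 8 genes at the left lie above NC with the variant, Slc7a12 by 12.8-fold in the fitted change, and 6 of the 8 at the right (all but Slc25a48 and Ctxn3) were not called against NC when scaled by library totals alone.

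Genes that are higher in male mouse kidney, under androgen control, had the lowest list median. Of 16 such genes 15 were lower than in NC and 0 higher (median log2 -3.51, against -2.80 in AKI_mcherry). Kap, Slc7a13, Slc22a30 and Cyp7b1 are also on the proximal tubule lists and Slco1a1 on the drug transporter list. The male-biased list is therefore not separate from those lists. Slco1a1, an organic anion transporter gene, was at 0.254, 0.0772, 0.0422 and 0.884 CPM against 236, 384, 511 and 282 in NC and 44.6, 58.1, 12.4 and 43.7 in AKI_mcherry. It was 1119-fold below NC (log2 -10.13 ± 0.66, SE; edgeR adjusted p = 1.74e-06), a fold that rests on low counts. Acsm3, of medium-chain fatty acid activation, was at 13.6, 7.85, 10.3 and 26.4 against 1638, 1477, 1619 and 1253 CPM (102-fold lower) and at 205, 189, 75.2 and 177 CPM in AKI_mcherry. Against AKI_mcherry, 5 of the 16 were lower and 3 higher. The exception against NC was Serpina1f (146 ± 13.9 against 147 ± 34.9 CPM).

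The 8 largest falls by fold were in Slco1a1, Pzp, of the alpha-2-macroglobulin family (218-fold), Acsm3, Inmt, an N-methyltransferase gene (52.6-fold), Pde6a, a phosphodiesterase gene (45.4-fold), Dpys, of pyrimidine breakdown (40.8-fold), Slc22a28, an organic anion transporter gene with near copies (38.6-fold), and Hrg, encoding histidine-rich glycoprotein (33.1-fold). Pzp was at 0.494, 0.335, 0.408 and 1.09 CPM against 89.3, 149, 162 and 112 in NC and 16.7, 16.4, 6.90 and 15.9 in AKI_mcherry. In the FGF23 variant group Pzp, Pde6a, Dpys and Hrg had means under 1 CPM. The 8 largest rises were in Fosl1, Fgf23, Csn3, Mmp10, Slc7a11, Nptx2, Ccl20 and Havcr1. Csn3, the kappa-casein gene, was at 6.01, 4.75, 5.03 and 4.44 CPM with 0 counts in NC (at least 98.6-fold above the nominal floor) and at 0.859, 0.740, 2.41 and 0.387 CPM in AKI_mcherry. Mmp10, encoding stromelysin 2, was at 6.07, 23.6, 22.8 and 8.27 CPM and Nptx2, a pentraxin gene, at 2.56, 8.71, 9.11 and 4.62 CPM, each with 4 counts in 1 NC library and 0 in the others.

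Most of the UGT1A glucuronosyltransferase genes, which conjugate bilirubin, hormones and drugs, were higher with the variant, while their total was not above NC. Of 7 tested UGT1A genes 5 were higher and 1 lower than in NC, and the genes of the list summed to 467 to 662 CPM in the FGF23 variant group, 504 to 714 CPM in NC and 211 to 385 CPM in AKI_mcherry. Ugt1a2 was at 68.9, 56.2, 66.8 and 33.1 CPM against 0.423, 0.562, 0.539 and 0.322 in NC and 0.123, 0, 0.127 and 0.268 in AKI_mcherry (123-fold above NC, adjusted p = 1.84e-07). Ugt1a1, which conjugates bilirubin, was at 40.0, 37.2, 41.0 and 20.6 CPM against 0.202, 0.562, 0.310 and 0.934 in NC and 0.806, 0, 0.522 and 0.550 in AKI_mcherry (69.1-fold, adjusted p = 1.88e-06). Ugt1a7c was 1.82-fold lower. Shared exons make the division of reads among these genes uncertain.

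Smaller groups were mixed, beside 21.7% higher and 20.6% lower among all genes tested. When scaled by library totals alone, 7829 of all 19005 genes were higher and 2096 lower. Of 9 tested renin-angiotensin genes 5 were lower and 0 higher (median log2 -0.58), and 3 were lower and 1 higher when scaled by library totals alone. Ace, which makes angiotensin II, was 7.44-fold lower, while Ren1, the renin gene, was at 75.4 ± 12.6 against 63.7 ± 23.5 CPM (adjusted p = 0.421). Of 18 cholesterol genes 8 were higher and 4 lower (median -0.11, 0.23 when scaled by library totals alone), with Cyp51, of sterol synthesis, 3.03-fold lower. Of 12 complement genes 3 were higher and 4 lower (median -0.23, 0.10 when scaled by library totals alone, with 3 higher and 2 lower). The central component C3 was 6.13-fold higher, and Cfb, of the alternative pathway, 2.15-fold lower. Of 16 hypoxia and glycolysis genes 7 were higher and 4 lower, with Hk2, a hexokinase gene, 6.10-fold higher and Vegfa, the vascular growth factor gene, 1.62-fold lower. Of 15 interferon response genes 4 were higher and 0 lower (median 0.15), and 7 were higher when scaled by library totals alone. Of 6 tested genes of the liver list 3 were higher and 2 lower (0 lower when scaled by library totals alone), and Fgb, a fibrinogen gene that was also high in AKI_mcherry (144 ± 50.7 CPM), was at 73.9 ± 57.8 against 0.693 ± 0.439 CPM.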

How the data were processed

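Poly(A) RNA from kidney was made into strand-marked, paired-end libraries, per the labels' protocols. The submitters' processing notes name fastp, StringTie and edgeR and the build GRCm39, with no versions. No aligner, annotation or strand setting for the counting was given in those notes. The authors deposited raw counts and FPKM per gene and library, and the counts of 32047 genes were used. The FPKM values deposited by the authors were not used.

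Each pair of groups was fitted separately (8 libraries a fit) with edgeR 4.0.16 in R 4.3.3 (TMM factors, filterByExpr, quasi-likelihood test, Benjamini-Hochberg adjusted p under 0.05 over all genes tested). The SE printed with a log2 change is that change, without its sign, divided by the square root of the F statistic of the test. It is an approximation and not a value given by edgeR. CPM uses TMM factors over all 12 libraries, which were 1.12 to 1.16 in the FGF23 variant group and 0.879 to 0.911 in NC. Single events may have been counted more than once, since a count of 4 occurred 11995 times against 5847 for a count of 3 and 3638 for a count of 5. The floor of 3 counts therefore covers counting error only. Simulated data for the FGF23 variant group against NC held 19005 genes, of which 200 were changed. On these the test recovered 19.4% of 1.5-fold, 53.7% of 2-fold and 81.8% of 4-fold changes, with 2 false calls. In the data themselves 4123 genes were called higher and 3912 lower. The adjusted p depends on how many genes change, so these rates need not hold for the data.

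The members and the gene lists were chosen with earlier results of these data known. Some genes are on more than 1 list, so counts of different lists are not independent. Genes named by rule were 12 hormone and injury genes, the 8 largest rises and falls, the 8 largest changes on each opposite side of NC, and up to 3 list members in each direction. The rule took genes past the threshold without overlap and with a mean of at least 5 CPM in 1 group. Other members were named after their values were seen, and some genes are not reported here. Alternatives were RLE factors, library totals alone, 2 other filters, DESeq2 1.42.0, 1 fit of 12 libraries, the replicate number as a block and leaving out each library. RefSeq promoters were matched by symbol, and no coordinates were converted between builds.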

Additional observations from a re-analysis of the deposited data

Results flagged for a closer look

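Single libraries stood far from the other 3 of their group in 19 of 305 gene and group pairs (6.23%), by a gap over 0.829 of the group's range. Chance flags about 1 in 20 groups. In the FGF23 variant group, replicate 1 was high for Slc34a3 (12.9 CPM against 4.48 to 4.68 in the others), Slc7a12 (54.2 against 21.3 to 23.8), Sdha, a complex II gene (476 against 420.0 to 426), and Cfd, the adipsin gene of fat (58.2 against 0.322 to 7.08). Replicate 2 was high for Aqp3 (36.8 against 33.4 to 33.9), Nphs1 (47.9 against 42.5 to 42.7) and Cd8a, a T cell gene (2.14 against 0.621 to 0.842). Replicate 3 was high for the urothelial genes Krt5 (12.8 against 5.65 to 6.50) and Upk1b (11.3 against 1.55 to 1.71) and low for Clic5, a podocyte and endothelial gene (41.7 against 55.3 to 57.2). Replicate 5 was low for Msmo1, of sterol synthesis (81.1 against 92.7 to 94.4).

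In NC, replicate 1 was high for Sdf2l1 (10.1 CPM against 4.60 to 5.46) and Cyp4a10, of fatty acid oxidation (570.0 against 449 to 464), and low for Vegfa (193 against 246 to 253) and Slc25a37, a mitochondrial iron carrier gene (34.3 against 41.9 to 43.3). Replicate 2 was high for Chac1 (4.39 against 0.754 to 0.998). Replicate 3 was high for Slc22a30 (343 against 277 to 287) and Ugt1a9 (0.327 against 0 in the others), and replicate 4 low for Slc22a12 (1807.1 against 2083.0 to 2097.8).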

How the results depend on the processing

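Scaling by library totals alone gave 7829 genes higher and 2096 lower than NC, 4060 higher and 1035 lower than AKI_mcherry, 4988 and 1867 that remained higher and lower, 139 above and 4 below NC on the opposite side, and 1066 higher and 49 lower set apart. Of the 36 and 16 genes on opposite sides of NC, 23 and 3 were among those. Correlations of deviations between same-numbered FGF23 variant and NC libraries were -0.21, -0.061 and -0.203, and between differently numbered ones -0.391 to 0.347. So few values cannot decide whether replicate numbers pair the samples. FGF23 variant replicate 5 and replicate 4 of NC and of AKI_mcherry have no same-numbered partner when compared. A block fit with the variant group therefore rests on fewer libraries, and its lower counts cannot be put down to pairing. With the replicate number as a replicate block, the same counts were 2388 and 2335 against NC, 984 and 803 against AKI_mcherry, 2002 and 2053 that remained, 17 and 5 on opposite sides, and 81 and 45 set apart.

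Leaving out 1 library at a time, counts against AKI_mcherry ranged from 1252 to 2088 higher and 1158 to 2171 lower, those set apart from 159 to 254 higher and 102 to 212 lower, and those on the opposite side below NC from 8 to 26. Against NC the ranges were 3540 to 4167 higher and 3437 to 3881 lower. An arm with a library left out was fitted with the spread pooled over both groups. RLE factors, both other filters, DESeq2 and the fit of 12 libraries kept each of these counts within 1.5 times.

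Over the genes followed singly and their alternatives, 2246 values kept direction and side of the threshold, 74 no longer passed, 7 newly passed and 12 changed sign. The sign changes were in 6 genes that were not called. Leaving out 1 library at a time, log2 changes ranged from -0.54 to 0.16 for Atp2a1, -0.25 to 0.16 for Mylpf, -2.94 to 0.97 for Cfd, -0.12 to 1.04 for Hbb-bs, -0.70 to 0.071 for Fabp4 and -0.0023 to 1.06 for Krt5, and with library totals alone they were 0.023 for Atp2a1 and 0.28 for Mylpf. The cause was not tested. Depth limits the folds of Fgf23, Fosl1 and Csn3, which had 0 counts in all NC libraries, to lower bounds.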
